A study of Mus musculus with 12 samples.

Results

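The genes described here are 7 transcripts with roles at the epithelium of the small intestine and in the T cells that live inside it: Btnl1, Btnl2, Ccl25, Il17re, Cd24a, Muc1 and Dpp4. They are 7 of the 547 genes on the panel, were found by symbol, and all 7 passed the filter on low signal that kept 457 genes. The members were chosen by their function with their measured signal across the 4 groups in view, so the levels in all 4 groups count as used. Their values and differences are therefore given as a description. How many members lay past the threshold used for all genes is also given, and nothing is read from it. Tests are given only for other genes of the same pathways. The lists of these other genes were also chosen with earlier results of these data known. Their counts and medians are therefore a description too.

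RNA of the terminal ileum, the last stretch of the small intestine, was measured in 12 female mice on a NanoString nCounter panel, which counts fluorescent barcodes hybridised to each transcript without amplification. The mice were pups of mothers that had received cecal contents, either control contents or contents perturbed by an antibiotic, which the labels call STAT. Pups carried the label C57 (C57BL/6) or IL10 (deficient in the cytokine IL-10), which gave 4 groups of 3 mice. Below, WT_control and WT_STAT stand for the C57-labelled pups of each inoculum. The IL10-labelled ones are IL10_control and IL10_STAT. Every mouse had a mother that was given cecal contents, so no group stands for an unexposed mother. The age of the mice, the kind of Il10 allele, and the mothers, litters and cages are not stated in the labels. Differences between mothers or litters and the effect of the inoculum cannot be told apart, and the spread between mice of 1 group may be smaller than that between litters.

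Il10 itself went against the labels, with a signal of 0 to 1.02 in the 6 C57-labelled mice and 24.9 to 74.4 in the 6 IL10-labelled mice. Where the probe lies relative to the altered part of the gene is not stated in the labels, so the groups are called by their labels. WT_control samples held 146691 to 365850 counts above background and WT_STAT samples 191012 to 276579. IL10_control samples held 398625 to 506141, and IL10_STAT samples 541733 to 717454. The samples WT_control 3 and WT_STAT 3 had the lowest median signal of the 6 C57-labelled samples, at 6.61 and 6.84 on the log2 scale against 7.02 to 7.61 in the other C57-labelled samples. WT_control 3 held the lowest value of its group for 7 of the 7 genes and for 75.3% of the 457, and WT_STAT 3 for 6 of the 7 and for 84% of the 457. Of 20 listed epithelial markers only Pigr, Nox1 and Il18 were in the table used here, so the share of epithelium in a sample could not be checked against the markers that define it. Pigr is the receptor that carries antibodies across the epithelium. It read 13310 in WT_control 3 and 21046 in WT_STAT 3 against 32749 to 38291 in the other C57-labelled samples. Nox1 and Il18 are not given by sample here, so Pigr alone does not stand for the epithelium. Between the labels, the 3 markers gave 1 higher and 0 lower under control, and 1 higher and 1 lower under STAT (limma, adjusted p under 0.05).

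The small intestinal epithelium holds many T cells between its own cells, and it shapes them by contact and by secreted signals. Butyrophilin-like proteins on enterocytes select and maintain gamma delta intraepithelial T cells, and the chemokine CCL25 draws lymphocytes that carry its receptor CCR9 to the small bowel. The same epithelium answers T cell cytokines of the IL-17 family through paired receptor chains, and it carries surface glycoproteins and peptidases such as MUC1, CD24 and DPP4.

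The regions around the start sites are shown because several of these genes are known for expression in enterocytes, where the factors HNF4, HNF1 and CDX2 act. RefSeq entries on GRCm38.p6, from 250 bases before the start to 50 after it, were at hand for 6 of the 7 genes, and Cd24a had none. Capitals mark matches to the motifs searched on both strands. These were CAAAGTCCA (HNF4), GTTAAT (HNF1 core), TTTATNG (CDX) and TTCNNNGAA (GAS). The reverse strand of the CDX letters can overlap a TATA box. GAS is the site of STAT transcription factors, which share only a name with the STAT inoculum. Btnl2 and Btnl1 lie side by side on chromosome 17 at 34354789 to 34369492 and 34377123 to 34386162, with 7630 bases and 0 other genes between them. The Btnl2 region is chr17:34354572-34354871 on the plus strand, and the Btnl1 region is chr17:34376882-34377181 on the plus strand. Ccl25 has 2 starts, of which the downstream one is printed, at chr8:4349338-4349637 on the plus strand. The Dpp4 region is chr2:62412182-62412481 on the minus strand.
Btnl2: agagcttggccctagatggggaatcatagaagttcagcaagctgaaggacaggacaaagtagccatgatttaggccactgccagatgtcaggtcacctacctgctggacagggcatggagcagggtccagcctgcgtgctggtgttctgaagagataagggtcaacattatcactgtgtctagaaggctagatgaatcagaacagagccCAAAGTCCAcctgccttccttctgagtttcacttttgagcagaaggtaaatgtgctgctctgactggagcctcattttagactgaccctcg
Btnl1: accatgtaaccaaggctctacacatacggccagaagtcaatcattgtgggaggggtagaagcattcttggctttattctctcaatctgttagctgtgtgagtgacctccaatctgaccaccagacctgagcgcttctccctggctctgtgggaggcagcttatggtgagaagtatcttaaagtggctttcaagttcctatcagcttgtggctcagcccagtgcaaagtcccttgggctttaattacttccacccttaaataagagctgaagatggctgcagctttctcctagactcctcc
Ccl25: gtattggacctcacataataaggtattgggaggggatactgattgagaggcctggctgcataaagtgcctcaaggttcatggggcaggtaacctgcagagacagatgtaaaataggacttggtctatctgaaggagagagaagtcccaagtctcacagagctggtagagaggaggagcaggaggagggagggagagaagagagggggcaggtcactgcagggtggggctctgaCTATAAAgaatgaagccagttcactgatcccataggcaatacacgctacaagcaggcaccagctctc
Dpp4: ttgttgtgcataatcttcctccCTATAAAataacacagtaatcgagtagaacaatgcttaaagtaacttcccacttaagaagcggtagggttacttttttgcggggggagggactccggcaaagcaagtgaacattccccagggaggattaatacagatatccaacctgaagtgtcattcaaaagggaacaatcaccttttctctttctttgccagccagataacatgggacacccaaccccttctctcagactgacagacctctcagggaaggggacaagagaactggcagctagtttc

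The HNF4 letters were found in 1 of the 6 genes, in Btnl2 at position -41 from the start. They were found in 0.475% of all 32851 mouse promoter entries. The CDX letters were found in 2 of the 6, Ccl25 at -17 from its downstream start and Dpp4 at -228, and in 10.9% of all entries. The upstream Ccl25 entry, which is not printed, held 0 matches. The 6 are counted by gene and the shares by entry. The HNF1 core and the GAS letters were found in 0 of the 6, against 7.1% and 8.3% of all entries. These are matches of letters in 1 window around each start and do not show that a factor binds there.

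**Figure D1:**
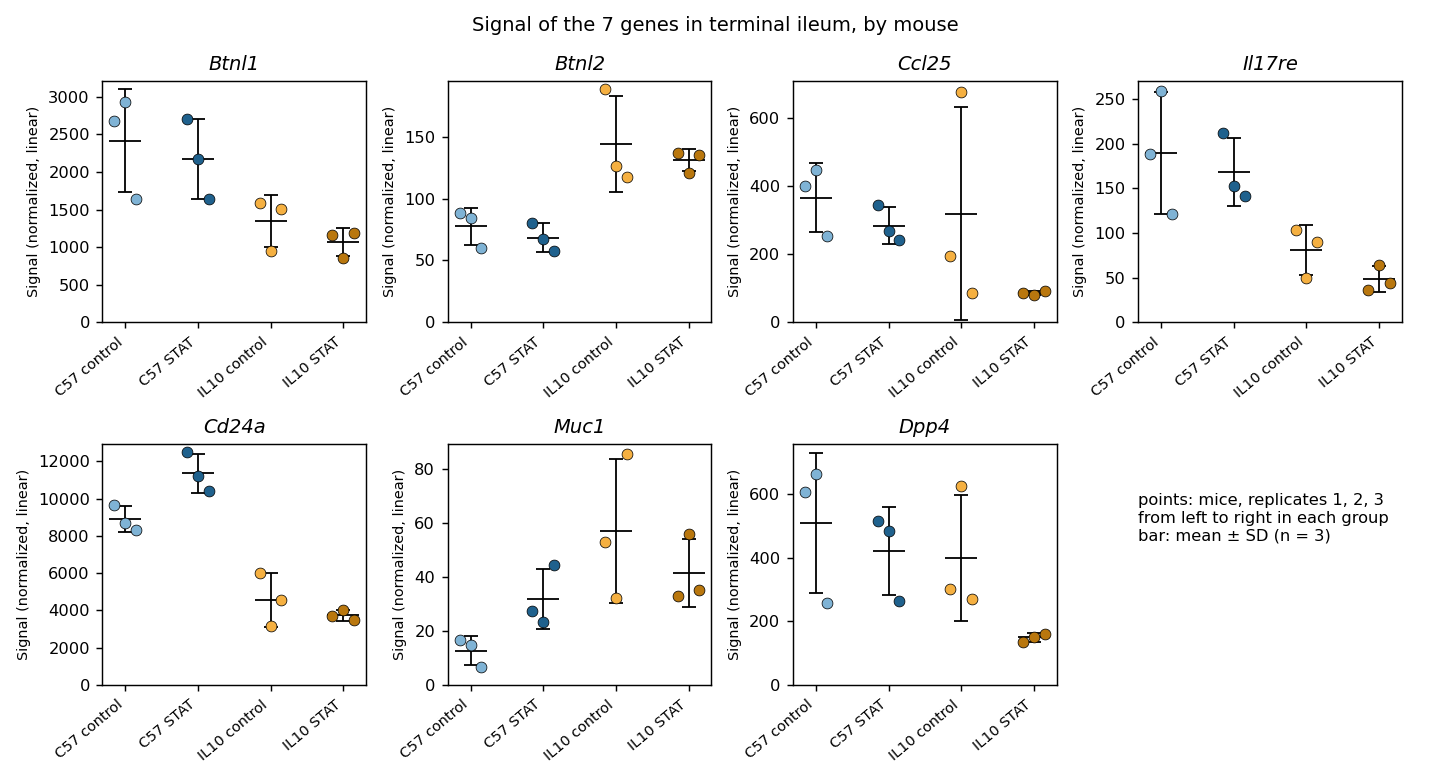
Normalized signal of each of the 7 genes in each of the 12 mice (points) on a linear axis from 0, with 1 panel per gene, and the mean and SD of each group of 3 as bars. C57 control and C57 STAT on the axis are WT_control and WT_STAT. Cd24a, Btnl1 and Il17re read lower in every IL10-labelled mouse than in every C57-labelled mouse, Btnl2 reads higher in every one, and Ccl25 and Dpp4 hold 1 high IL10_control mouse.

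As deposited, the butyrophilin-like pair lay on opposite sides between the genotype labels, Btnl1 lower and Btnl2 higher with the IL10 label. For Btnl2 under the control inoculum, the side depended on the scaling. Btnl1, which in the mouse forms a pair with Btnl6 that engages gamma delta T cell receptors of the small intestine, read 2682, 2929 and 1647 in WT_control and 2701, 2172 and 1641 in WT_STAT. It read 1587, 949 and 1508 in IL10_control and 1168, 855 and 1186 in IL10_STAT. All 6 IL10-labelled mice lay below all 6 C57-labelled mice, and within each label the ranges of the inocula overlapped. The group means were 2419 ± 680 (SD, n = 3), 2172 ± 530, 1348 ± 348 and 1070 ± 186 in the same order. On the log2(signal + 1) scale, on which all differences below are given with their standard errors, Btnl1 was lower with the IL10 label by -0.84 ± 0.30 under the control inoculum and -1.01 ± 0.30 under STAT, which is 1.79-fold and 2.01-fold lower. In bulk RNA, fewer cells of a type and less RNA per cell cannot be told apart, for this and every gene below.

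Btnl2, a butyrophilin-like protein that in mice restrains T cell activation, read 88.2, 84.2 and 60.4 in WT_control and 80.5, 67.5 and 57.3 in WT_STAT. It read 189, 126 and 117 in IL10_control and 137, 121 and 135 in IL10_STAT. No IL10-labelled mouse came below a C57-labelled mouse. The means were 77.6 ± 15.04 and 68.5 ± 11.6 in the C57-labelled groups and 144 ± 38.8 and 131 ± 8.73 in the IL10-labelled groups (SD, n = 3 each). The deposited values gave 0.87 ± 0.24 under control and 0.94 ± 0.24 under STAT, or 1.83-fold and 1.92-fold higher with the IL10 label. Under control this direction depended on the scaling. Once sample medians were aligned, the differences were -0.30 ± 0.21 under control and 0.42 ± 0.21 under STAT. Quantile normalization gave -0.55 and 0.26, and centring on the broadly expressed genes gave 0.91 and 1.15. The sign was that of the deposited values in 21 of 23 alternative settings under control and in 23 of 23 under STAT. The median gene was higher with the IL10 label by 1.01 under control and 0.50 under STAT as deposited.

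Most tested B7 ligands and receptors rose with the IL10 label. Of 18 listed butyrophilin and B7 genes, 11 were in the table used here and 10 were tested, of which 8 rose and 0 fell under the control inoculum and 6 rose and 0 fell under STAT (limma, adjusted p under 0.05 over 457 genes). The medians of the 10 were 2.19 and 1.59, against 1.01 and 0.50 over all genes tested. With sample medians aligned, they were 1.02 and 1.07, against -0.16 and -0.02 over all genes. The listed butyrophilins were not among the 10, so these counts say nothing about butyrophilins other than the members. Over all 457 genes, 53.6% rose and 3.94% fell under control, and 40% rose and 11.6% fell under STAT. The counts of the lists below stand beside the same shares. Cd274, which encodes the T cell inhibitory ligand PD-L1, rose by 2.89 ± 0.37 under control (limma adjusted p = 6.18e-05) and by 2.71 ± 0.37 under STAT (limma adjusted p = 0.000198). Ctla4, an inhibitory receptor of activated T cells, was under 20 in every C57-labelled mouse and was at least 6.43-fold and 5.13-fold higher with the IL10 label. Icos, a costimulatory receptor of T cells, rose by 3.13 ± 0.42 and 2.25 ± 0.42.

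Ccl25, the chemokine of the small intestinal epithelium, separated the groups in another way in the deposited values. It read 399, 447 and 254 in WT_control, 344, 267 and 241 in WT_STAT, and 85.0, 80.1 and 90.6 in IL10_STAT. The IL10_control mice read 195, 676 and 87.0, which spans the lowest group and the top of the whole study. The IL10_STAT mean of 85.2 ± 5.22 lay below the other 3, which were 319 ± 314 in IL10_control, 284 ± 53.5 in WT_STAT and 367 ± 101 in WT_control and whose ranges overlapped. The IL10 label differed from C57 by -1.71 ± 0.57 under STAT, or 3.27-fold lower, and by -0.66 ± 0.57 under the control inoculum. With sample medians aligned, the differences were -2.23 ± 0.48 under STAT and -1.83 ± 0.48 under control, so the inocula lay closer. Centred on the broadly expressed genes, they were -1.50 under STAT and -0.62 under control.

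Between the inocula within the IL10 label, Ccl25 was lower with STAT by -1.40 ± 0.57, or 2.63-fold, with overlapping ranges. That value depended on IL10_control 2: it was -0.61 without that mouse and -2.08 without IL10_control 3. The genotype difference under the control inoculum likewise was -1.45 without IL10_control 2 and 0.02 without IL10_control 3. IL10_control 2 had the highest summed signal of 8 B cell markers, 2569 against 254 in IL10_control 3, and of 5 neutrophil markers, 29400 against 377, and it had the lowest Pigr of the IL10-labelled mice, 24920. The part of these in its Ccl25 signal was not tested.

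Every lymphocyte homing gene that passed rose with the IL10 label, as did most of the panel's passing genes. Of the pathway genes, 0 passed the interaction. Of 13 listed, 7 were in the table used here and were tested. Of these, 6 rose and 0 fell under the control inoculum, where 53.6% of the 457 genes rose and 3.94% fell. Under STAT 2 rose and 0 fell, where 40% of all genes rose and 11.6% fell. The medians were 1.88 and 0.92 as deposited, beside 1.01 and 0.50 over all genes, and 0.71 and 0.40 with sample medians aligned. Of the 2 under STAT, Ccr10 was under 20 in every WT_STAT mouse, with a geometric mean of 14.9 in IL10_STAT. With values under 20 set to 20, Ccr10 differed by 0.07 (limma adjusted p = 0.797). Ccr7, which guides naive and central memory lymphocytes into lymph nodes, was under 20 in every WT_control mouse and at least 7.22-fold higher in IL10_control (limma adjusted p = 0.000172). Ccr9, the receptor of CCL25, was chosen for mention after its values were seen. It rose by 0.94 ± 0.27 under the control inoculum (limma adjusted p = 0.0112) and differed by 0.09 ± 0.27 under STAT (limma adjusted p = 0.789). Centred on the sample medians, both Ccr9 values were below 0, at -0.23 and -0.43.

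Il17re, the chain that pairs with IL-17RA to receive the epithelial cytokine IL-17C, was lower with the IL10 label under both inocula. It read 189, 259 and 122 in WT_control and 212, 153 and 141 in WT_STAT, against 103, 50.04 and 89.9 in IL10_control and 36.5, 64.1 and 44.4 in IL10_STAT. No IL10-labelled mouse reached the lowest C57-labelled one. The difference was -1.22 ± 0.36 under control and -1.80 ± 0.36 under STAT, or 2.32-fold and 3.47-fold lower. STAT against control gave -0.71 ± 0.36 in IL10-labelled and -0.13 ± 0.36 in C57-labelled mice, with overlapping ranges in both.

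In the IL-17 family, the receptor chain Il17rb fell with the IL10 label under both inocula, and the calls of Il17a and Il17f depended on signals under 20. Of 11 genes listed, 6 were in the table used here and 4 were tested, of which 1 rose and 1 fell under the control inoculum, and 2 rose and 1 fell under STAT. Their medians were 0.64 and 1.92 as deposited and -0.53 and 1.40 with sample medians aligned, against 1.01 and 0.50 over all genes as deposited. Il17rb, a receptor chain for IL-25, fell by 1.19 ± 0.28 under control (limma adjusted p = 0.00342) and by 1.59 ± 0.28 under STAT (limma adjusted p = 0.000905). The T cell cytokine Il17a passed in the upward direction under both inocula (limma adjusted p = 0.00427 and 0.000251) and Il17f under STAT (limma adjusted p = 0.000469). Both cytokines were under 20 in all C57-labelled mice of the comparison, which bounds their ratio under STAT at 1.57-fold for Il17a and 1.20-fold for Il17f or more and gives no bound for Il17a under control. With values under 20 set to 20, Il17a differed by 0.30 under control and 0.65 under STAT (limma adjusted p = 0.364 and 0.0539), and Il17f by 0.26 under STAT (limma adjusted p = 0.216). Quantile normalization also took away the calls of Il17a under control and of Il17f (limma adjusted p = 0.497 and 0.132). Il17ra, the shared chain that Il17re needs, was chosen for mention after its values were seen and differed by 0.52 ± 0.31 under control (limma adjusted p = 0.178).

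Cd24a, a heavily glycosylated surface protein of epithelial progenitors and of many immune cells, was lower with the IL10 label under both inocula. It read 9657, 8713 and 8318 in WT_control and 12484, 11220 and 10409 in WT_STAT. It read 6028, 3140 and 4542 in IL10_control and 3714, 4005 and 3464 in IL10_STAT. The IL10-labelled mice all lay below the C57-labelled mice, and the 3 WT_STAT mice all lay above the 3 WT_control mice. The IL10 label was lower by -1.01 ± 0.23 under control and -1.61 ± 0.23 under STAT, or 2.01-fold and 3.05-fold. Within the C57 label, STAT was higher by 0.35 ± 0.23 as deposited and differed by -0.02 with median centring. Within the IL10 label it differed by -0.25 ± 0.23 as deposited and by 0.03 with centring. Of 7 listed CD24 partners, the Src-family kinases Fyn and Lck were in the table used here. Lck rose by 1.71 ± 0.27 under control (limma adjusted p = 0.00022) and by 0.87 ± 0.27 under STAT (limma adjusted p = 0.0192). Fyn rose by 0.82 ± 0.32 under control (limma adjusted p = 0.0463). With sample medians aligned, Fyn differed by -0.35 there and did not pass (limma adjusted p = 0.0815). The Fyn call was lost in 12 of 23 alternatives, and the Lck call under STAT in 4, among them median centring (limma adjusted p = 0.108). The 8 T cell markers, of which Lck is itself one, summed to 269 to 542 in C57-labelled and 1088 to 2036 in IL10-labelled mice, and their part in these differences was not tested.

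Muc1, a transmembrane mucin, was the dimmest of the 7, with 4.5 to 59.25 counts above background. It read 16.7, 14.7 and 6.55 in WT_control, 27.5, 23.5 and 44.6 in WT_STAT, 53.2, 32.3 and 85.6 in IL10_control, and 33.0, 56.2 and 35.3 in IL10_STAT. WT_control was the only group that lay apart, under 20 in all 3 mice, and the other 3 groups overlapped. Against a floor of 20, WT_STAT was at least 1.53-fold higher than WT_control, and IL10_control was at least 2.64-fold higher. Under STAT the genotype difference was 0.38 ± 0.43 as deposited, -0.14 with median centring and -0.58 with quantile normalization, so its direction was not settled. With values under 20 set to 20, the STAT difference within the C57 label was 0.62. Of 9 listed mucins and surface glycoproteins, 4 were in the table used here and 3 were tested, with 0 higher and 1 lower under each inoculum. Their medians were 0.63 and 0.41 as deposited and -0.54 and -0.11 with sample medians aligned, beside 1.01 and 0.50 over all genes as deposited. The one that fell was Cd9, a tetraspanin of many cell types, by 0.71 ± 0.22 under control and by 0.68 ± 0.22 under STAT (limma adjusted p = 0.0167 and 0.0248), and these calls were lost in 4 and 5 of 23 alternatives.

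Dpp4, a brush border peptidase that trims chemokines and incretins and is also the T cell surface protein CD26, resembled Ccl25. It read 605, 663 and 257 in WT_control, 516, 483 and 263 in WT_STAT, 299.8, 625 and 270.4 in IL10_control, and 134, 152 and 161 in IL10_STAT. All 3 IL10_STAT mice lay below the other 9 mice, and the other 3 groups overlapped. STAT was lower than control within the IL10 label by -1.31 ± 0.43, or 2.48-fold, and by -0.93 without IL10_control 2. IL10_STAT lay below WT_STAT by -1.43 ± 0.43, or 2.70-fold, and IL10_control differed from WT_control by -0.34 ± 0.43. Centred on sample medians, the same 3 values were -1.03, -1.96 and -1.51.

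Among chemokines that DPP4 can cleave, Cxcl9, Cxcl10 and Ccl5 rose with the IL10 label under both inocula. Of 14 listed substrates and adenosine partners, 11 were in the table used here and 10 were tested, of which 7 rose and 0 fell under control and 6 rose and 2 fell under STAT. The medians were 2.35 and 1.52 as deposited, beside 1.01 and 0.50 over all genes, and 1.18 and 0.996 with sample medians aligned. Cxcl9 and Cxcl10, interferon-induced attractants of activated T cells, led the list: Cxcl9 rose by 6.10 ± 0.26 under control (limma adjusted p = 5.31e-08) and by 4.93 ± 0.26 under STAT. Cxcl10 was under 20 in every WT_control mouse and at least 16.5-fold higher in IL10_control. The 2 that fell under STAT were Cxcl12, a stromal chemokine, by 0.84 ± 0.23, and Nt5e, the ectoenzyme that makes adenosine, by 0.69 ± 0.24 (limma adjusted p = 0.01 and 0.0344). The Nt5e call was lost on leaving out any of 5 samples. Both were named after their values were seen. Within the C57 label, Cxcl9 rose with STAT by 1.38 ± 0.26 (limma adjusted p = 0.0315), the one pathway gene to pass in a STAT comparison. That call was lost in 13 of 23 alternatives, 9 of which left out 1 sample, with median centring giving 1.01 (limma adjusted p = 0.317).

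Il15 and Il7 fell with the IL10 label, and the receptor chains Il2rb and Il2rg rose. Of the 11 genes of the IL-15 and IL-7 list, all tested, 4 rose and 2 fell under control and 3 rose and 2 fell under STAT, with medians of 0.21 and -0.29 as deposited and -0.96 and -0.82 with sample medians aligned, beside 1.01 and 0.50 over all genes as deposited. The receptor chains Il2rb and Il2rg rose by 2.25 ± 0.26 and 2.57 ± 0.27 under control, and by 1.23 ± 0.26 and 1.20 ± 0.27 under STAT. Il15, the survival factor of these T cells, fell by 1.23 ± 0.26 under control (limma adjusted p = 0.002) and by 1.19 ± 0.26 under STAT (limma adjusted p = 0.00335). Il7, an epithelial and stromal lymphocyte growth factor that was named after its values were seen, fell by 0.74 ± 0.25 under both (limma adjusted p = 0.0254 and 0.0282). The Il7 call was lost in 5 of 23 alternatives under control and in 6 under STAT, with a variance trend among them (limma adjusted p = 0.0552 and 0.0611). Intraepithelial T cell markers, 14 of 17 of them in the table used here and without Itgae, Trdc and Trgc1, summed to 383 to 719 in C57-labelled and 1373 to 2910 in IL10-labelled mice. Of the 12 tested, 12 passed as higher under control and 8 under STAT, where 53.6% and 40% of the 457 genes did. Many of these markers are shared with other T cells, and their part in the differences above was not tested.

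**Figure D2:**
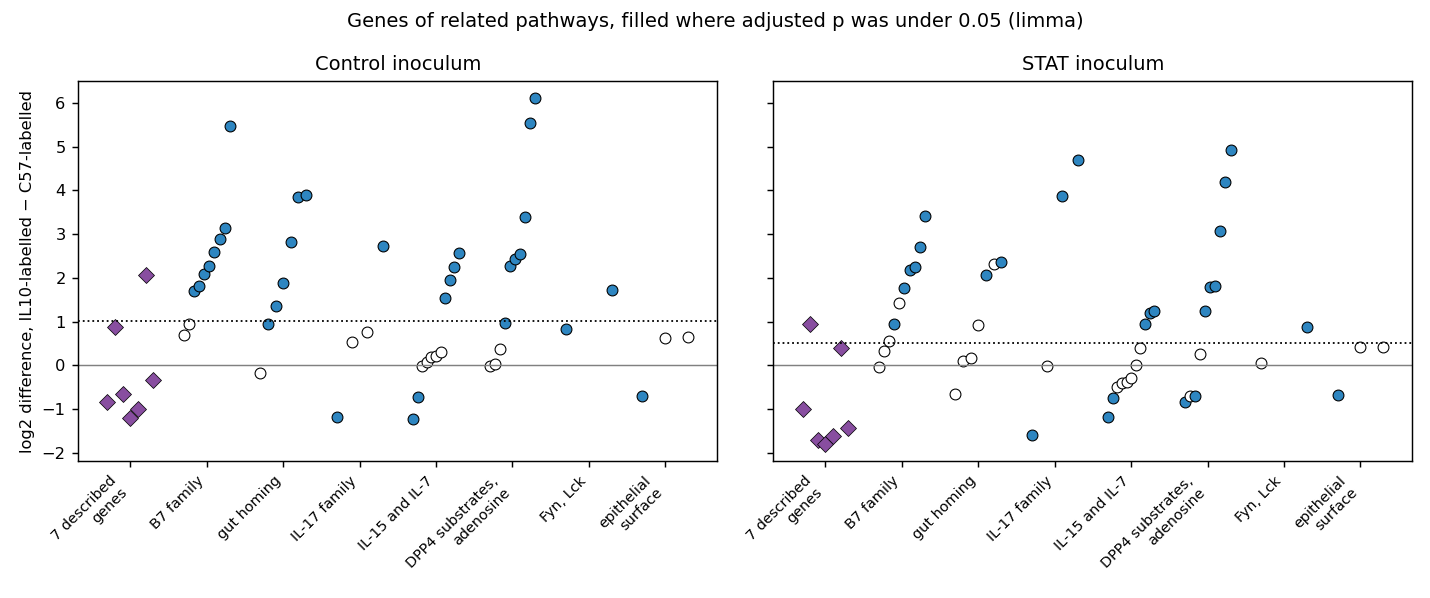
Log2 differences between the genotype labels under each inoculum for the tested genes of the 7 pathway lists (circles, filled where the limma adjusted p was under 0.05). The 7 described genes are diamonds, shown without a test, and the dotted line is the median of all genes tested. The B7 family, homing and DPP4 substrate lists lie mostly above 0, with medians of 2.19, 1.88 and 2.35 under control, and the IL-15 and IL-7 list lies on both sides.

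In ranges, 5 of the 7 genes did not overlap between the labels under the control inoculum, 2 higher and 3 lower, where 61.3% of the 457 genes did not overlap, 56% higher and 5.25% lower. Under STAT 6 did not overlap, 1 higher and 5 lower, where 64.6% of all genes did not, 47.3% higher and 17.3% lower. By adjusted p under 0.05, the genotype comparisons put 5 of the 7 genes past that rule under the control inoculum, with Btnl2 and Muc1 higher and Btnl1, Il17re and Cd24a lower. The background was 57.5% of the 457 genes, 53.6% higher and 3.94% lower. Under STAT, 6 of the 7 were past it, with Btnl2 higher and Btnl1, Ccl25, Il17re, Cd24a and Dpp4 lower, against 51.6% of all genes, 40% higher and 11.6% lower. Since these contrasts were in view when the genes were chosen, nothing is read from the counts or from which genes were past the rule. The medians of the 7 were -0.66 and -1.43, against 1.01 and 0.50 over all genes tested. The panel's own split was 245 genes higher and 18 lower under control, and 183 and 53 under STAT. Median centring gave 154 and 183 under control and 136 and 145 under STAT. It puts the middle gene of each sample at 0, so a near-even split follows largely from the method. Centred on the broadly expressed genes, the split was 272 and 27 under control and 228 and 54 under STAT. With median centring, 0 of the 7 were past the rule upward and 5 were past it downward under each inoculum.

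**Figure D3:**
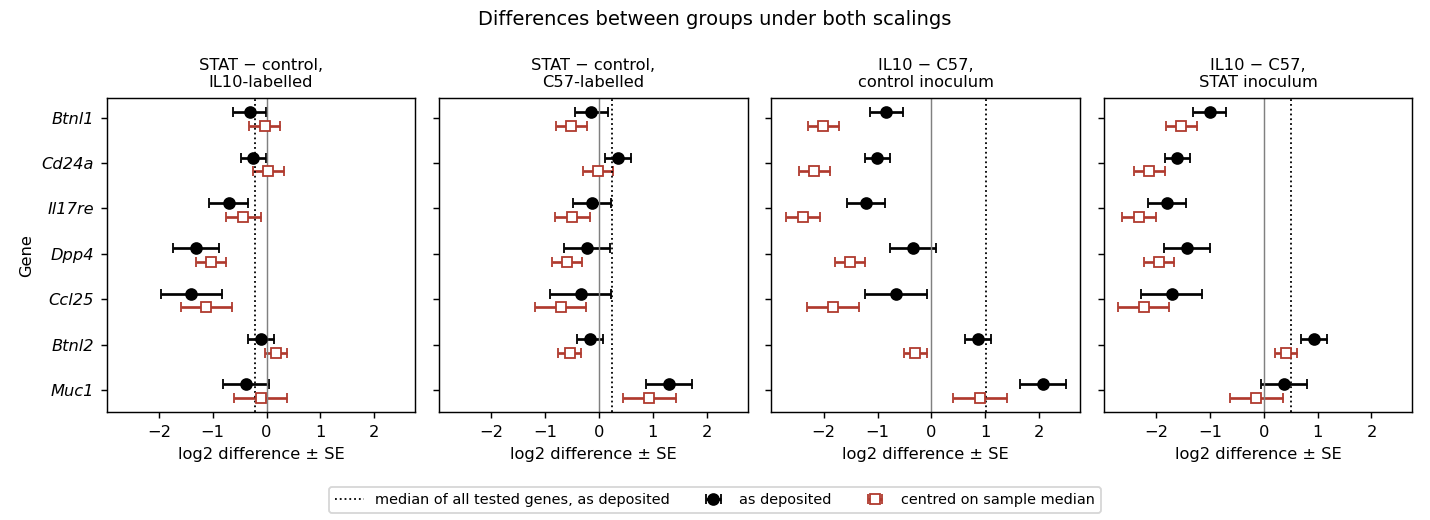
Log2 differences with standard errors of the 7 genes in the 4 comparisons between groups, as deposited (filled circles) and after aligning sample medians (open squares). The dotted line is the median of all genes tested, and Muc1 against WT_control rests on signals under 20. Btnl1, Il17re and Cd24a lie below 0 between the genotype labels on both scales, and Btnl2 changes side under the control inoculum, from 0.87 to -0.30.

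The STAT comparisons put 0 of the 7 past the rule in either label. Within the IL10 label the background was 0% of the 457 genes, with 31 at an unadjusted p under 0.05, and within the C57 label it was 0.875%, or 4 genes, all higher, with 79 at an unadjusted p under 0.05. In ranges, 1 of the 7 did not overlap within the IL10 label, Dpp4, which was lower, where 23.2% of all genes did not overlap, 1.97% higher and 21.2% lower. Within the C57 label 2 did not overlap, Cd24a and Muc1, both higher, where 16% of all genes did not, 15.8% higher and 0.219% lower. The interaction, which asks whether the STAT effect differs between the labels, gave 0 of the 7 and 0% of the panel past the rule, with 97 genes at an unadjusted p under 0.05. Among the 6 genes other than Muc1 it lay between -1.09 ± 0.60 for Dpp4 and 0.07 ± 0.34 for Btnl2, with Ccl25 at -1.05 ± 0.81. Muc1, under 20 in WT_control, stood at -1.01 with values under 20 set to 20.

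**Figure D4:**
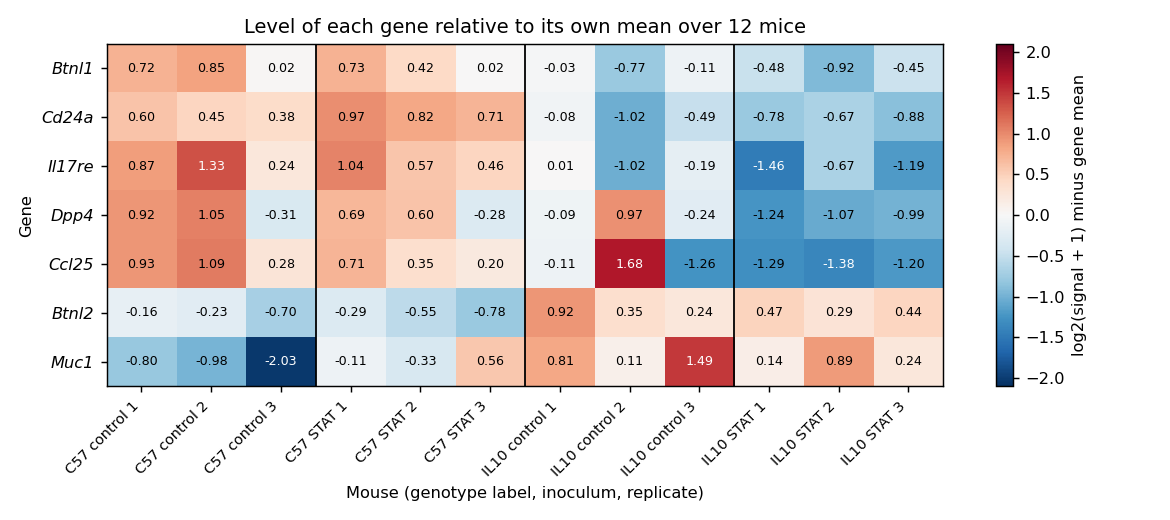
Level of the 7 genes in each of the 12 mice, as log2(signal + 1) minus the gene's mean over the 12, from blue (low) to red (high). The column of IL10_control 2 is high for Ccl25 and Dpp4 and low for Btnl1, Il17re and Cd24a, and WT_control 3 is the lowest of its group in 7 of 7 genes.

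Among themselves the genes fell closest in 3 pairings by the root mean square distance between their centred log2 profiles over the 12 samples. Btnl1 and Cd24a were 0.359 apart, Il17re and Cd24a 0.371, and Ccl25 and Dpp4 0.442. Outside the set, Fcgrt and Il15 lay nearest to Btnl1, at 0.115 and 0.206 against a median of 1.01 over all genes. Ccl6 and Il15 lay nearest to Cd24a, at 0.155 and 0.267 with a median of 1.15, and Il17rb nearest to Il17re, at 0.272 with a median of 1.29. Lilra5 and Casp8 were nearest to Btnl2 (0.169 and 0.175), Maf and Mr1 to Dpp4 (0.373 and 0.462), Irf4 and Batf3 to Muc1 (0.475 and 0.493), and Tslp and Mr1 to Ccl25 (0.657 and 0.714). The profiles share the 12 samples and their scaling, so these distances describe likeness only.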

How the data were processed

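Total RNA of 12 samples was extracted with TRIzol and RNeasy columns, per the labels' protocols. The authors deposited 1 table with a normalized signal for 547 genes, and 0 of its columns belonged to no sample. The unit was read from the values, because the sources used here give neither software nor normalization. Within a sample the values lie on a grid of 1 step size, as background-subtracted barcode counts times 1 factor would. What that factor was fitted to is unknown, so a difference between labels depends on it. Depth was taken from the step size, which gives counts above background, and 0.917 was the lowest correlation between replicates.

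Groups followed the labels, and replicate numbers follow the order of the sample records and pair nothing. A gene was kept where 3 or more of the 12 samples reached a signal of 20, which left 457. The fit used limma 3.58.1 (R 4.3.3) on log2(signal + 1), with 1 coefficient per group. P-values were adjusted by Benjamini-Hochberg over the 457 genes, with a threshold of 0.05. Nothing says that the mice came from separate litters, so p-values measure only the spread between these samples. A gene under 20 in a whole group has a bound, computed from the geometric mean of the other group over 20. The code was tested on simulated data.

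The 7 genes and all lists were chosen with earlier results of these data known. The naming rule took up to 3 passing genes of largest difference per list and comparison, or where none passed the 2 of smallest p, and the 2 nearest profiles of each member. Some of them are not reported here or are given only within counts, and listed genes that did not pass are not named except where a sentence says so. Alternatives covered scaling, filter, pseudocount, low values, sample weights, variance prior, the samples in the fit, and each sample left out.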

Additional observations from a re-analysis of the deposited data

How the results depend on the processing

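No paired analysis was possible because the labels give no replicate numbers shared between the groups. With 3 mice a group and an unknown scaling factor, small differences were not detectable, and values under 20 limit Muc1. As a description over 23 alternatives, the genotype differences under control and STAT ranged from -2.18 to -0.76 and -2.31 to -1.40 for Cd24a, from -2.60 to -0.91 and -2.57 to -1.58 for Il17re, and from -2.01 to -0.60 and -1.53 to -0.80 for Btnl1. Under control, Btnl2 turned to -0.30 with median centring and -0.55 with quantile normalization, and Muc1 to -0.020 with the latter. Under STAT, Muc1 was -0.14 and -0.58 with those scalings. Between the labels under control, Fyn turned to -0.35 and -0.25, Ccr9 to -0.23 and -0.80 and Il17ra to -0.65 and -0.56 with those 2 scalings. There Il17a turned to -0.50 with quantile normalization. Between the labels under STAT, Ccr9 turned to -0.43 and -0.77 with the same 2 scalings. Its range was -0.059 to 0.23 when 1 sample was left out (lowest without IL10_STAT 3). Ccr10 turned to -0.93 there with quantile normalization. Of 40 calls of single pathway genes, 26 were kept in all their alternatives and 14 were lost in at least 1, among them Cxcl9 within the C57 label, Fyn, Il7, Cd9, Nt5e, Ccr9, Ccr10, Ccr6, Il17a, Il17f, and Lck under STAT. The cause was not tested.

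Array weights, whose fit stopped before convergence, gave 40 genes, 5 pathway genes and 3 members (Ccl25, Il17re, Dpp4) for STAT in IL10-labelled mice, 83 genes and 13 pathway genes for STAT in C57-labelled mice, and 132 genes, 18 pathway genes and 1 member (Cd24a) for the interaction. The weights were lowest for WT_control 3 and WT_STAT 3, at 0.121 and 0.189, and highest for IL10_STAT 3, at 4.36. The same 3 comparisons were fitted without WT_control 3 and WT_STAT 3, chosen after seeing the data. They gave 3, 31 and 59 genes and 1, 4 and 8 pathway genes. For STAT in C57-labelled mice, the 4 genes became 0 with median centring, quantile normalization or only the 2 groups compared, 2 when centred on broadly expressed genes and 7 with a variance trend, and the 1 pathway gene became 0 in those first 4 settings. Leaving out 1 sample at a time gave 0 to 44 genes and 0 to 7 pathway genes there, 0 to 58 and 0 to 6 for the interaction, and 3 to 5 members under control and 3 to 6 under STAT between the labels. Without IL10_control 2 the 4 members were Btnl2, Ccl25, Cd24a and Muc1. Without WT_control 2 the 3 were Btnl2, Cd24a and Muc1, and without WT_STAT 1 the 3 were Btnl2, Il17re and Cd24a. The members were chosen with their levels in view, so their counts in all these settings are a description and nothing is read from them.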
